A study of Mus musculus with 6 samples.

Results

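miR-140 and miR-455 are microRNAs (miRNAs), short RNAs that guide Argonaute proteins to partly complementary messenger RNAs and lower their output. Each is cut from a hairpin precursor, which can give a mature strand from either arm, named 5p or 3p. The 4 mature strands mmu-miR-140-3p, mmu-miR-140-5p, mmu-miR-455-3p and mmu-miR-455-5p were taken by name from the 1907 miRNAs listed for each library. All 4 had counts in every one of the 6 libraries and all 4 passed the filter on low counts, as did 697 miRNAs in all.

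Both hairpins are best known from the developing skeleton. miR-140 is the most characteristic miRNA of chondrocytes, is switched on with the cartilage regulator Sox9, and its loss in mice leads to growth and joint cartilage defects. Its 5p arm is known for repressing the aggrecan-cutting protease Adamts5. miR-455 lies in a collagen gene of cartilage and is known in chondrocytes and brown fat. Its 3p arm has been linked to TGF-beta signalling, the main matrix-inducing pathway of fibroblasts.

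The cells were primary dermal fibroblasts from newborn mouse skin, grown for 6 days and sequenced at passage 1. All mice carried Cre recombinase under the fibroblast promoter Col1a2 on a mixed background of 50% C57Bl/6 and 50% FVB/N. Fibroblasts of 3 mice also had a constitutively active Nrf2 mutant (genotype Col1a2Cre-caNrf2, here caNrf2), and those of 3 other mice had the Cre only (Col1a2Cre-wt, here ctrl). Nrf2 is the transcription factor of the antioxidant response, and no miRNA count checks its transgene.

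Library totals ran from 10443268 to 28237159 counts. Levels are given in CPM, the count scaled to a common library total by TMM, which corrects for differences in library composition. The 8 mesenchymal miRNAs used to check cell type summed to 229371 to 259462 CPM in caNrf2 and 237538 to 241786 CPM in ctrl libraries. Of the 8, 4 were called lower (3 miR-199 strands and miR-152-3p). Of all 697 tested miRNAs 11.6% were called lower, 14.1% higher and 25.7% in either direction. The other 4 were not called by edgeR. Among them miR-143-3p (84263 and 102563 CPM in ctrl and caNrf2) and miR-145a-5p (392 and 487 CPM) were higher in every caNrf2 library. The groups overlapped for miR-21a-5p (108328 and 110865 CPM) and miR-214-3p. The sum is mostly miR-21a-5p and miR-143-3p, so it can hide opposite moves of the others. The 7 keratinocyte miRNAs summed to 1035 to 1864 CPM in ctrl and 1600 to 2120 CPM in caNrf2 libraries, and edgeR called 0 of the 7 (1 had an unadjusted p under 0.05, and DESeq2 and limma-voom called 1 each). Blood, muscle and neural or melanocyte miRNAs were called higher in caNrf2 for 4 of 7, 4 of 4 and 3 of 6 tested, all above the 14.1% over all tested miRNAs, with sums of 386 to 476, 344 to 421 and 457 to 638 CPM in ctrl and 648 to 760, 558 to 737 and 1095 to 1304 CPM in caNrf2 libraries. Endothelial miR-126a arms were called for 0 of 2 (edgeR, DESeq2 and limma-voom, with 0 at an unadjusted p under 0.05). No miRNA of these lists was at 0 in either group, though the defining miRNAs miR-1a-3p of muscle (9 counts over the ctrl and 16 over the caNrf2 libraries) and miR-124-3p of neurons (8 and 9) were close to it. The part of other cell types in the results below was not tested. In bulk RNA, fewer cells of a type and less RNA per cell cannot be told apart.

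The sequences below show that the 3 members with a printed sequence differ in their seed, bases 2 to 8 of the mature strand. The seed sets most of target recognition. RefSeq (GRCm38.p6) held the mature sequence of 3 of the 4 members, printed 5′ to 3′ with the seed in capitals.
mmu-miR-140-3p: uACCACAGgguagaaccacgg
mmu-miR-455-5p: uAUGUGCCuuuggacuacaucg
mmu-miR-455-3p: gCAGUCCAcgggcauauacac
The 3 seeds differ. The printed strands were 21 or 22 bases long, and no length scaling was applied. Whether different strands were captured equally well was not tested, so ranks and ratios between strands below describe counts only.

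The Mir140 hairpin is 70 bases long and lies at chr8:107551244-107551313 on the plus strand (mm10, GENCODE M21), with the 3p arm at 107551288 to 107551308. It is shown with that arm in capitals, because this strand carried most of the counts described next.
Mir140 hairpin: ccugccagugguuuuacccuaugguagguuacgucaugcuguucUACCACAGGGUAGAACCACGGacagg
The hairpin sits in the same orientation inside Wwp2, which encodes a ubiquitin ligase. In the principal transcript it falls in intron 16 of a 24-exon gene model, 1108 bases after the exon upstream and 963 bases before the exon downstream. A retained-intron transcript of Wwp2 also covers it. The 82-base Mir455 precursor lies at chr4:63256851-63256932 on the plus strand, in intron 10 of Col27a1, a fibrillar collagen gene of cartilage with 61 exons in its principal transcript, and only 127 bases before the next exon.

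The 4 strands spanned a wide range of levels. In every library mmu-miR-140-3p was the most abundant, followed by mmu-miR-140-5p, mmu-miR-455-5p and mmu-miR-455-3p. The CPM ranges of neighbouring strands in that order did not overlap over the libraries. Among all listed miRNAs, miR-140-3p ranked 45th in ctrl and 56th in caNrf2 by mean CPM, miR-140-5p 171st and 210th, miR-455-5p 258th and 262nd, and miR-455-3p 407th and 421st. miR-140-3p made up 0.322% of ctrl and 0.209% of caNrf2 counts.

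**Figure D1:**
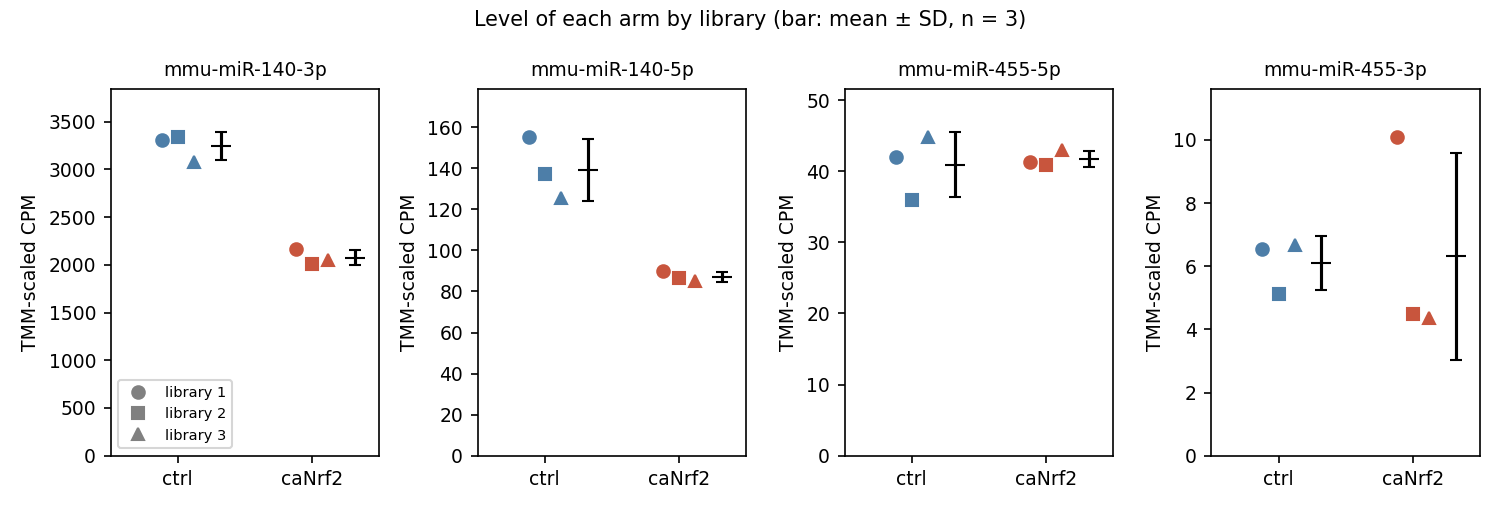
TMM-scaled CPM of the 4 strands in each library (points, shaped by library number), with the mean ± SD of 3 libraries per group beside them, each panel on its own axis from 0. Both miR-140 arms are lower in all caNrf2 libraries than in any ctrl library, whereas the miR-455 arms overlap and miR-455-3p is high in caNrf2 library 1 at 10.1 CPM.

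The question was whether active Nrf2 goes with another level of these skeletal miRNAs in dermal fibroblasts. Both arms of miR-140 fell in caNrf2 fibroblasts, 1.56-fold and 1.60-fold, and neither arm of miR-455 passed the test. mmu-miR-140-3p had 3313, 3342 and 3078 CPM in ctrl libraries 1, 2 and 3 and 2165, 2009 and 2052 CPM in caNrf2 libraries 1, 2 and 3. Every caNrf2 library lay below every ctrl library, and the gap between the groups was wider than the range within either. The mean went from 3244 ± 145 to 2075 ± 80.7 CPM (SD, n = 3), and the fitted log2 fold change was -0.64 ± 0.07 (SE), with a 95% interval of -0.81 to -0.48 and a Benjamini-Hochberg adjusted p of 2.28e-04 in the quasi-likelihood test of edgeR.

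mmu-miR-140-5p, the strand known for Adamts5, had 155, 137 and 125 CPM in the ctrl libraries and 89.8, 86.6 and 84.9 CPM in the caNrf2 libraries. The groups again did not overlap, and the ctrl libraries were the more spread out. It fell from 139 ± 15.1 to 87.1 ± 2.51 CPM, and its log2 fold change was -0.68 ± 0.11 (95% interval -0.92 to -0.43, edgeR adjusted p = 0.00145).

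mmu-miR-455-5p, the main strand of its hairpin here, had 42.0, 36.0 and 44.8 CPM in the ctrl libraries and 41.3, 40.8 and 43.0 CPM in the caNrf2 libraries. All 3 caNrf2 values lay within the range of the ctrl values. The means were 40.9 ± 4.53 and 41.7 ± 1.16 CPM and the log2 fold change was 0.03 ± 0.13, far from the threshold (edgeR adjusted p = 0.904). The 95% interval of -0.26 to 0.32 does not reach the fitted change of either miR-140 arm.

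mmu-miR-455-3p was the scarcest strand, with 68, 84 and 135 counts in the ctrl and 144, 108 and 122 counts in the caNrf2 libraries. These correspond to 6.55, 5.11 and 6.66 CPM and to 10.1, 4.49 and 4.37 CPM. caNrf2 library 1 was the highest of all 6 and the other 2 caNrf2 libraries were the lowest. The Wilson 95% interval of caNrf2 library 1, 8.58 to 11.9 CPM, lay clear of those of caNrf2 libraries 2 (3.72 to 5.42 CPM) and 3 (3.66 to 5.21 CPM). Such intervals cover counting error only. The means were 6.11 ± 0.87 and 6.32 ± 3.28 CPM and the log2 fold change was 0.00 ± 0.34 (edgeR adjusted p = 0.999), with a wide 95% interval of -0.76 to 0.76. Without caNrf2 library 1 the log2 fold change was -0.47 ± 0.18, which did not pass (adjusted p = 0.0961).

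Of the 4 members, 2 were called, both lower. Over all 697 miRNAs tested 25.7% were called, 11.6% lower and 14.1% higher. Among the members 2 of 4, and among all tested miRNAs 41.6%, had no CPM value shared between the ranges of ctrl and caNrf2. A fitted fall larger than that of miR-140-3p was found for 33 of the 697. Falls were common among abundant miRNAs. Of the 77 with a ctrl mean of at least 1000 CPM, 25 (32.5%) were called lower and 5 higher. In this group only miR-10a-5p, a Hox cluster miRNA, and miR-322-5p, known for restraining the cell cycle, had lower log2 fold changes than miR-140-3p, -0.73 ± 0.17 and -0.72 ± 0.09.

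**Figure D2:**
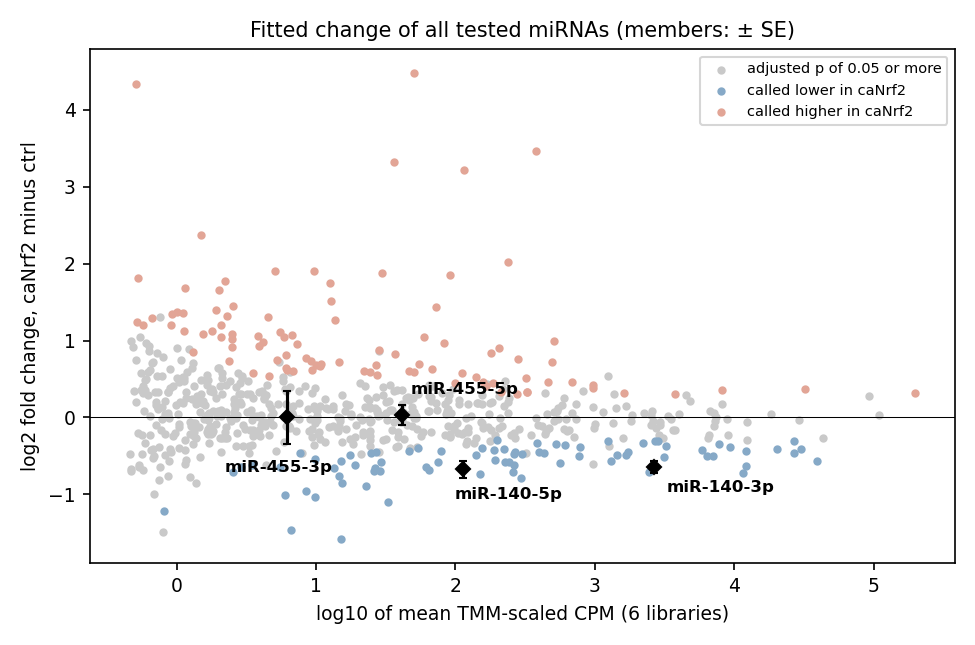
Fitted log2 fold change (caNrf2 minus ctrl) against log10 of the mean CPM over 6 libraries for the 697 tested miRNAs, coloured by call, with the members as black diamonds ± SE. miR-140-3p and miR-140-5p lie at -0.64 and -0.68 and the miR-455 arms at the zero line, where the scarcer miR-455-3p has the widest error bar.

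The arms of miR-140 kept their proportion. There were 21.3, 24.3 and 24.6 miR-140-3p counts for each miR-140-5p count in the ctrl libraries and 24.1, 23.2 and 24.2 in the caNrf2 libraries. The groups overlapped, and the lowest of the 6 was ctrl library 1. The mean ratio was 23.4 ± 1.798 in ctrl and 23.8 ± 0.55 in caNrf2 fibroblasts, and the mean log2 ratio differed by 0.03 (two-sided exact permutation p = 1 over 20 assignments, n = 3 per group). With 3 against 3 libraries this test cannot go below a p of 0.1.

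In miR-455 the 5p arm was the major one. Its ctrl libraries had 6.41, 7.04 and 6.73 miR-455-5p counts for each miR-455-3p count, a narrow range, whereas the caNrf2 libraries had 4.09, 9.09 and 9.85. caNrf2 library 1 lay below, and the other 2 caNrf2 libraries above, all ctrl libraries. The mean log2 of 3p over 5p counts was -2.74 ± 0.07 in ctrl and -2.83 ± 0.70 in caNrf2 libraries, a difference of -0.09 (exact permutation p = 1; adjusted over the 2 hairpins 1). Without caNrf2 library 1 the difference was -0.50, and the groups of 3 and 2 libraries then did not overlap (exact permutation p = 0.1, the smallest those groups allow).

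The arm ratios of the groups did not overlap for 16.6% of the 211 hairpins that had both arms tested, and for neither miR-140 nor miR-455. The median absolute shift of the log2 arm ratio over these hairpins was 0.16. The shift of miR-140 was at the 10.4th percentile and that of miR-455 at the 31.8th. Both arms were called lower in 16 of the 211 (7.58%), among them miR-140. The arms of a hairpin come from one transcript and are not independent observations, so the fall of miR-140 counts as one.

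**Figure D3:**
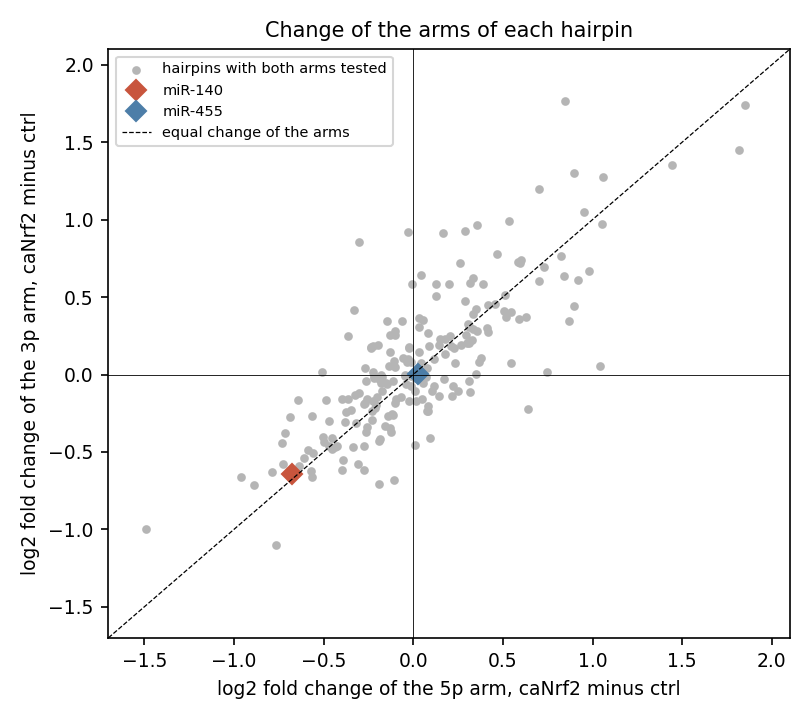
Log2 fold change of the 3p arm against that of the 5p arm (caNrf2 minus ctrl) for the 211 hairpins with both arms tested, with the line of equal change. miR-140 lies close to the line at -0.68 (5p) and -0.64 (3p), and miR-455 lies at its crossing with zero.

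Summed over both arms, the miR-140 hairpin had 3468, 3479 and 3204 CPM in the ctrl and 2255, 2096 and 2137 CPM in the caNrf2 libraries. The groups did not overlap, and the mean log2 level differed by -0.65 (exact permutation p = 0.1, adjusted over the 2 hairpins 0.2). The miR-455 hairpin summed to 48.5, 41.1 and 51.5 CPM in the ctrl and 51.4, 45.3 and 47.4 CPM in the caNrf2 libraries, with the caNrf2 values inside the ctrl range (log2 difference 0.03, exact permutation p = 0.9, adjusted 0.9). Scaled instead to library totals without the 5 most abundant miRNAs, the log2 difference was -0.49 for miR-140 and 0.19 for miR-455 (unadjusted exact permutation p = 0.1 for each).

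The balance between the hairpins needs no scaling between libraries, since both are counted in the same one. There were 71.5, 84.7 and 62.2 miR-140 counts per miR-455 count in the ctrl libraries and 43.9, 46.3 and 45.1 in the caNrf2 libraries. Every caNrf2 library lay below every ctrl library, and the caNrf2 libraries were the closer together. The ratio went from 72.8 ± 11.3 to 45.1 ± 1.20, a log2 difference of -0.68 (two-sided exact permutation p = 0.1, which is the lower limit of this design).

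**Figure D4:**
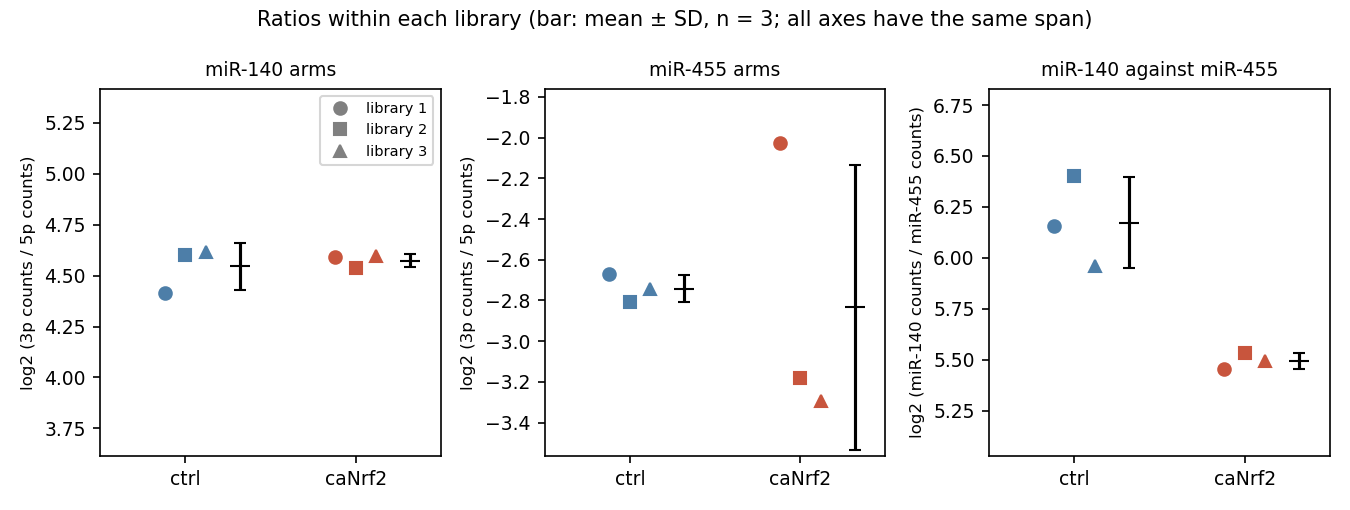
Log2 ratio of 3p to 5p counts for miR-140 and miR-455 and log2 ratio of miR-140 to miR-455 counts in each library (points), with the mean ± SD of 3 libraries per group. The groups overlap for both arm ratios and separate for the ratio of the hairpins, at a mean of 6.17 in ctrl and 5.49 in caNrf2 libraries.

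The fall of the miR-140 arms did not rest on one library or one scaling. Both were called in all 15 alternative settings, with log2 fold changes from -0.68 to -0.62 for miR-140-3p and from -0.75 to -0.60 for miR-140-5p. The highest adjusted p was 0.00181 for the 3p and 0.00852 for the 5p arm. The miR-455 arms were called in none of theirs, and their fitted direction changed with the setting.

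**Figure D5:**
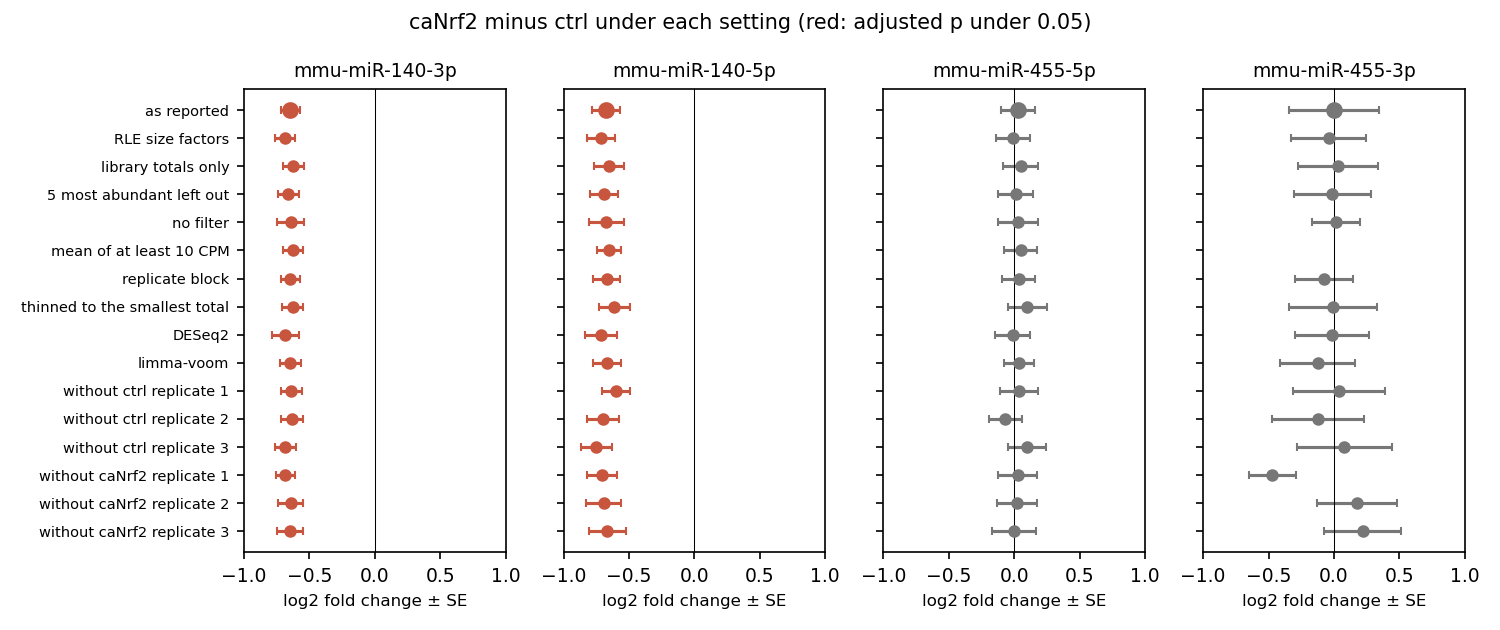
Log2 fold change ± SE (caNrf2 minus ctrl) of each member as reported and under each alternative, with red points where the adjusted p is under 0.05. Both miR-140 arms stay red and left of zero in every setting, and miR-455-3p moves to -0.47 without caNrf2 replicate 1.

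Few other miRNAs share a seed with the 3 members whose sequence is printed above, and the seed of miR-140-5p was not searched. Among the 1623 listed miRNAs with a RefSeq sequence, miR-497b has the seed of miR-140-3p and miR-5129-3p that of miR-455-5p, and no other listed miRNA has that of miR-455-3p. They are shown because they could act on the same sites.
mmu-miR-497b: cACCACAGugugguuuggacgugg
mmu-miR-5129-3p: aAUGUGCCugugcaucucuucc
Neither came near its partner in level. miR-497b had 3 counts over the ctrl and 3 over the caNrf2 libraries and was not tested. miR-5129-3p had 1.00 ± 0.34 and 1.12 ± 0.41 CPM (log2 fold change 0.20 ± 0.36, edgeR adjusted p = 0.711).

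Mir455 is 1 of 2 listed precursors that the annotation places inside a collagen gene in the same orientation. The other, Mir711 in Col7a1, the anchoring fibril collagen of skin, had no miR-711 count in any library, which allows up to 0.287 CPM in the shallowest one. None of the 2 tested miRNAs of collagen genes, both arms of miR-455, was called by edgeR, DESeq2 or limma-voom, and both had unadjusted p over 0.05 in edgeR.

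Other miRNAs reported in chondrocytes moved in both directions. Of 33 tested, 8 rose and 6 fell, with a median log2 fold change of -0.02, beside 0.03 over all tested miRNAs. The 42.4% called compare with 25.7% over all tested miRNAs. Several of the list, including all 6 falls, are among the 77 with a ctrl mean of at least 1000 CPM (25 called lower and 5 higher). The count of 14 dropped to 8, 7 and 8 without ctrl library 3, caNrf2 library 2 and caNrf2 library 3. Calls over all tested miRNAs also dropped there, from 98 rises and 81 falls to 71 and 55, 74 and 63, and 80 and 63. miR-148a-3p, known for repressing DNA methyltransferase 1, fell from 14798 ± 989 to 9575 ± 509 CPM (edgeR adjusted p = 6.77e-04; log2 fold change -0.63 ± 0.09). miR-199a-5p, a mesenchymal miRNA, fell from 8304 ± 751 to 5848 ± 382 CPM. The largest rise was in miR-138-5p, from 63.2 ± 11.7 to 694 ± 84.3 CPM. It and miR-9-5p, which also rose, are in the neural or melanocyte list too, and both falling miR-199a strands are in the mesenchymal list. miR-335-5p, hosted by the imprinted gene Mest, rose 1.86-fold to 266 ± 17.5 CPM, and miR-146a-5p, a brake on inflammatory signalling, rose 1.84-fold to 36.5 ± 4.0 CPM.

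In the list of miRNAs reported in osteoblasts, which shares 6 members with the cartilage list, 7 of 25 tested rose and 4 fell. The median log2 fold change was 0.17 and 44.0% were called, beside 0.03 and 25.7% over all tested miRNAs. Here too several are among the 77 with a ctrl mean of at least 1000 CPM (25 called lower and 5 higher). They include the falling miR-125b-5p, miR-322-5p and miR-30c-5p. Of the rises, miR-133a-3p and miR-206-3p are also in the muscle list and miR-138-5p and miR-338-3p in the neural or melanocyte list. The higher sums of those lists in caNrf2 libraries come largely from miR-133a-3p and miR-138-5p themselves, so they are not separate observations. The part of other cell types was not tested. miR-335-5p, named above, was another of the rises. miR-29c-3p, of a family that represses collagens, rose 1.96-fold to 111 ± 4.05 CPM (edgeR adjusted p = 2.28e-04). miR-322-5p fell from 3055 ± 246 to 1859 ± 137 CPM and miR-30c-5p from 1960 ± 89.5 to 1395 ± 29.3 CPM (log2 fold change -0.49 ± 0.07).

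The tested miRNAs nearest to each hairpin on its chromosome were far off. miR-7075-3p, 455.1 kb before Mir140, averaged 0.49 and 0.69 CPM (edgeR adjusted p = 0.521), and miR-3473d, 3465 kb after it, had 10.2 ± 0.76 and 9.63 ± 1.36 CPM (log2 fold change -0.08 ± 0.15, edgeR adjusted p = 0.746). Neither neighbour of Mir140 was called. Before Mir455, at 4816 kb, miR-3095-3p rose, with 2.56 ± 0.47 CPM in ctrl and 6.45 ± 1.53 CPM in caNrf2 libraries (edgeR adjusted p = 0.00139). Its other arm, miR-3095-5p, had a log2 fold change of 0.90 ± 0.31 that did not pass (adjusted p = 0.0599). After Mir455, at 25654 kb, miR-31-5p had 1437 ± 208 and 1110 ± 283 CPM (log2 fold change -0.37 ± 0.16, edgeR adjusted p = 0.123) and miR-31-3p a log2 fold change of -0.24 ± 0.26 (adjusted p = 0.544), so neither passed.

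The miRNAs whose pattern over the 6 libraries was most like that of each member were found among 368 others with a mean of at least 10 CPM, by the root mean square difference in centred log2 CPM. For miR-140-3p these were miR-676-5p (a difference of 0.07), miR-676-3p (0.07) and miR-134-5p (0.08). For miR-140-5p they were miR-374b-5p (0.09), miR-450b-5p (0.11) and miR-676-5p (0.12). Likeness to a strand whose groups do not overlap fixes their direction, so their log2 fold changes, from -0.73 for miR-450b-5p to -0.51 for miR-134-5p, are a description only. For miR-455-5p they were miR-194-5p (0.08), miR-377-3p (0.09) and miR-329-5p (0.09), and for miR-455-3p, at larger distances, miR-425-3p (0.19), miR-494-3p (0.20) and miR-323-3p (0.26). Their choice likewise favours small differences between the groups.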

How the data were processed

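The authors deposited raw counts of reads per mature miRNA, 1 file per library, with no normalization, per the file headers and values. Per the submitters' processing notes the tools were edgeR, featureCounts, Bowtie, cutadapt and CASAVA 1.8, and the build was mm10. The miRNA annotation and the handling of reads with several matches were not given in the sources used here.

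The test was the quasi-likelihood test of edgeR 4.0.16 under R 4.3.3 (glmQLFit and glmQLFTest on group alone, after filterByExpr at a minimum count of 10 and TMM), with Benjamini-Hochberg adjustment over 697 miRNAs and a threshold of 0.05. SEs came from the F statistic, and 95% intervals from the SE and the fit's degrees of freedom. Log2 ratios used counts plus 0.5, and two-sided exact permutation tests. Arms were paired by name. GENCODE M21 gave positions, with a precursor for 1872 of 1907 names. The fit was checked on simulated counts. No library was a copy of another (lowest chi-square per degree of freedom 64.6).

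Members and lists were chosen with earlier results of these data known. Named miRNAs were the members, same-seed and collagen-gene miRNAs, the 5 of each skeletal list with the smallest p and the 3 nearest in pattern. Positional neighbours, miR-10a-5p and the 1000 CPM level were added after values were seen. Alternatives were RLE, library totals, leaving out the 5 most abundant miRNAs, a mean of at least 10 CPM, no filter, DESeq2 1.42.0, limma-voom (limma 3.58.1), thinned counts, a replicate block, each library left out, and other additions to the counts.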

Additional observations from a re-analysis of the deposited data

How the results depend on the processing

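In all 15 alternatives both miR-140 arms were called lower and no miR-455 arm was called (14 for miR-455-3p, which a mean of at least 10 CPM leaves out). The uncalled log2 fold change of miR-455-3p turned negative with RLE (-0.040), without the 5 most abundant (-0.012), with the replicate block (-0.076), in thinned counts (-0.0091), with DESeq2 (-0.016) and with limma-voom (-0.13), and ranged from -0.47 to 0.22 over left-out libraries. That of miR-455-5p turned with RLE (-0.0097) and DESeq2 (-0.0097; -0.068 to 0.098 over left-out libraries), and the summed miR-455 level with RLE (-0.0031; -0.060 to 0.10). Against totals without the 5 most abundant miRNAs, with no TMM, the summed levels differed by 0.19 for miR-455 and -0.49 for miR-140, both at the smallest permutation p of 0.1. The shift of arm balance ranged from -0.037 to 0.065 for miR-140 and from -0.50 to 0.14 for miR-455 without single libraries. The 14 cartilage calls became 7 to 13 without single libraries. There the 98 rises over all miRNAs became 71 to 97 and the 81 falls 55 to 82. At a mean of at least 10 CPM, where 371 were tested, the 98 rises became 60, with 71 falls. Among uncalled named miRNAs, miR-194-5p turned with RLE and DESeq2 (-0.019, -0.021), miR-323-3p with library totals, a mean of at least 10 CPM and thinning (0.017, 0.012, 0.011), miR-329-5p with RLE, without the 5 most abundant and with DESeq2 (-0.025, -0.0028, -0.026), and miR-425-3p with RLE, without the 5 most abundant, with the replicate block, DESeq2 and limma-voom (-0.022, -5.4e-04, -7.9e-04, -0.022, -0.014). Without single libraries miR-194-5p spanned -0.0090 to 0.053, miR-323-3p -0.20 to 0.095, miR-329-5p -0.044 to 0.085, miR-3473d -0.19 to 0.011, miR-425-3p -0.28 to 0.20 and miR-5129-3p -0.20 to 0.45. The causes were not tested.

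Deviations of same-numbered libraries from their group means correlated at 0.18, 0.11 and -0.22 over tested miRNAs. Those of differently numbered libraries correlated at -0.36 to 0.36. With 3 libraries per group these values cannot decide whether the numbers pair the libraries. With the replicate block 102 miRNAs rose and 87 fell, miR-140-3p had a log2 fold change of -0.64 and miR-140-5p one of -0.67. With this block miR-31-5p, uncalled above, was called lower (-0.39 ± 0.09, edgeR adjusted p = 0.0116). miR-455-3p, the scarcest member, rested on 68 to 144 counts a library.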

Other observations

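Of the 5 miRNAs nearest in pattern to the miR-140 arms, 4 come from the X chromosome (both miR-676 arms, from one hairpin, miR-374b-5p and miR-450b-5p), whereas X-linked miRNAs make up 36 of the 368 compared, or 9.78%. None of the 6 nearest to a miR-455 arm is X-linked. Mir140 itself lies on chromosome 8. Of the 36 X-linked miRNAs 9 were called lower and 2 higher in caNrf2 fibroblasts (edgeR), with a median log2 fold change of -0.14. Over the 368, 68 were lower and 51 higher, with a median of -0.02. Most of the 9 are not independent. Among them miR-322-3p, miR-322-5p, miR-503-3p, miR-351-5p and miR-450b-5p belong to the same cluster, and both miR-676 arms to the same hairpin. This was noticed after the values were seen and no test of it was made.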
